A study of Mus musculus with 10 samples.

Results

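Neuronal nuclei of control mice from the *Mphosph8* floxed line and from the *Morc2a* floxed line were compared with each other, to ask which genes differ between the lines when no gene has been deleted. All libraries labelled *Nestin*-Cre- were taken, which gave 5 of the 10 libraries of the series. Control replicates 1, 2 and 3 are Mphosph8 fl/fl *Nestin*-Cre- (n = 3) and control replicates 4 and 5 are Morc2a fl/fl *Nestin*-Cre- (n = 2). All are labelled as adult brain of strain C57BL/6J, and the RNA is poly(A) RNA of nuclei sorted for NeuN, a nuclear protein of most neurons. The remaining libraries, used here only for comparison, are *Nestin*-Cre+ knockouts, 3 of Mphosph8 fl/fl and 2 of Morc2a fl/fl mice, in which Cre is driven by a promoter active in neural progenitors.

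Both floxed alleles carry loxP sites around exon 4 and were made in embryonic stem (ES) cells, from a purchased targeted clone for *Mphosph8* and by electroporation of IB10/C cells for *Morc2a*. An FlpE deleter strain took out the reporter and selection cassette, and both lines were kept on C57BL/6J. Each line thus descends from its own ES cell clone, and a floxed line may keep stretches of ES cell DNA, first of all beside the targeted gene. The number of backcross generations is not given in the sources used here. MPP8, the product of *Mphosph8*, is a chromodomain protein of the HUSH complex, which silences transgenes, transposons and other targets through H3K9 trimethylation, and MORC2A is an ATPase that acts with HUSH. Neither gene is deleted in control mice. The line and whatever else went with it, such as its breeding history, cannot be told apart. Housing by line is not given in the sources used here.

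The floxed exon of each gene is shown because it is what defines the lines. It is given from GENCODE M21 on GRCm38, plus strand, in the coding transcript with the most exons, and its length is not a multiple of 3 in either gene.
Mphosph8 exon 4, chr14:56676522-56676618, 97 bases: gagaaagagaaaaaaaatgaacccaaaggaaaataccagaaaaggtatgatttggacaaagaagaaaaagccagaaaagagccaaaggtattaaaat
Morc2a exon 4, chr11:3661829-3661863, 35 bases: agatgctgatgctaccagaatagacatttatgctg
The total count was between 6686038 (control replicate 5) and 10764555 (control replicate 3) in the control libraries, and the limit for a gene with no read, taken as 3 counts and covering counting error only, was 0.279 to 0.449 CPM (counts scaled to library size by TMM, the unit of all levels here).

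*Mphosph8* had 32.2, 33.5 and 37.2 CPM in control replicates 1, 2 and 3 and 49.0 and 41.6 CPM in replicates 4 and 5. The *Morc2a*-line libraries lay above the others, by 0.40 on the log2 scale (standard error 0.27), but this was no call (edgeR quasi-likelihood adjusted p = 0.692). *Morc2a* had 163, 139 and 138 CPM against 122 and 140 CPM, and the groups overlapped (log2 difference -0.16, standard error 0.15, edgeR adjusted p = 0.815). *Rbfox3*, which encodes NeuN, had 240, 230 and 274 CPM against 268 and 150 CPM (log2 difference -0.24, standard error 0.21, edgeR adjusted p = 0.784). Neither floxed gene was called between the lines.

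Between the control groups 24 of 18573 tested genes were called (0.129%), that is, had an edgeR adjusted p under 0.05 with more than a 2-fold difference. Of these, 10 were higher in the *Morc2a* line (0.0538% of tested genes) and 14 were lower (0.0754%). At any fold change 32 genes were below an adjusted p of 0.05 (0.172%), 14 higher and 18 lower. At an unadjusted p below 0.05 there were 1711 genes (9.21%), 792 higher and 919 lower. The levels of all 24 called genes did not overlap between the groups, which held for 29.2% of all tested genes. The median log2 difference of all tested genes was -0.003. Protein-coding genes made up 16 of the 24, and the other 8 were long noncoding RNAs, processed pseudogenes and transcripts of uncertain status. The number called was 11, 15, 11, 29 and 22 without control replicate 1, 2, 3, 4 or 5, and 10, 13, 10, 11 and 9 of the 24 genes remained. *Gm40893*, *Serpina3n* and *1700023H06Rik* remained called whichever control library was left out, and the other 21 lost the call at least once. With limma-voom 11 of the 24 remained called, *Serpina3n* among them. Not called by it were *Gm40893*, *1700023H06Rik*, *3222401L13Rik*, *Gm15920*, *Eps8l1*, *Zfp990*, *Col6a4*, *Gm48139*, *Gtf2ird1*, *Slc25a47*, *Gm19427*, *Gm36936* and *Gm43984*. With the 5 control libraries fitted alone, *3222401L13Rik*, *Zfp990*, *Col6a4*, *Gm19427* and *Elovl1* lost the call.

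**Figure D1:**
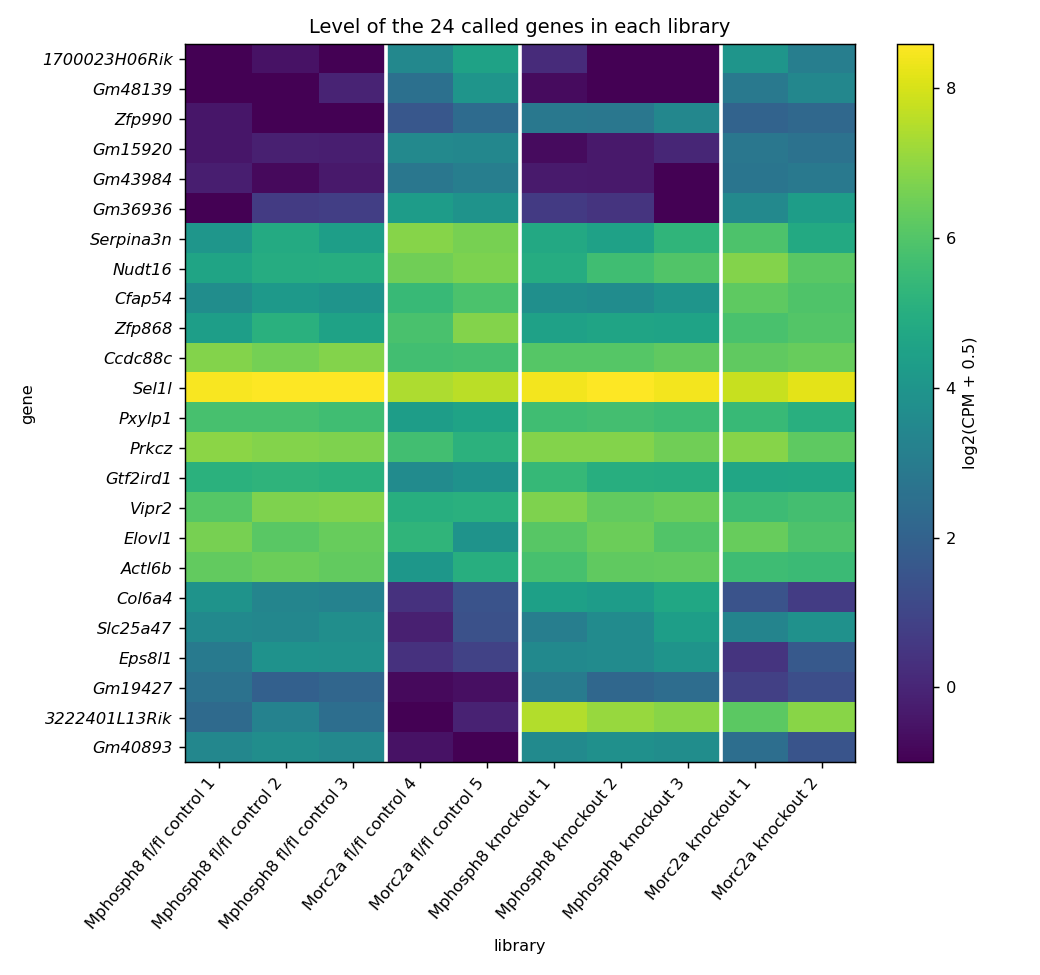
Level of the 24 called genes (rows, from the highest to the lowest log2 difference) in each of the 10 libraries (columns), as log2(CPM + 0.5) on the colour scale. White lines separate the groups. The first 6 genes are near the floor in the Mphosph8 fl/fl controls and the last 6 are low in the Morc2a fl/fl controls.

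Of the 10 genes that were higher in the *Morc2a* line, 6 had a mean below 1 CPM in the *Mphosph8*-line controls. The largest difference was in *1700023H06Rik* (chr13:80884224-80885524, a noncoding transcript), with 0, 0.195 and 0 CPM in control replicates 1 to 3 and 10.7 and 22.7 CPM in replicates 4 and 5. Its counts were 2 in all *Mphosph8*-line and 261 in all *Morc2a*-line controls, a ratio of 224 with a 95% counting interval of 61.4 to 1860 (edgeR adjusted p = 0.00574). Counting intervals, here and below, pool the counts of each line and cover counting error only, not the spread between mice. *1700023H06Rik* was not called by limma-voom (adjusted p = 0.102). The gene was thus nearly silent in one line and present in both libraries of the other. *Gm48139* (chr13:96605677-96609591) had 0, 0 and 0.468 CPM against 5.34 and 15.3 CPM (log2 difference 5.84, standard error 1.03, edgeR adjusted p = 0.0253). *Gm43984* (chr6:134084601-134087464) had 0.376, 0.0976 and 0.281 CPM against 6.43 and 8.02 CPM (log2 difference 4.80, standard error 0.91, edgeR adjusted p = 0.0439). *Gm36936* (chr9:72728140-72730888), with 0, 1.07 and 1.22 against 19.4 and 14.9 CPM, was called too (edgeR adjusted p = 0.0436). These 3 are single-exon entries whose coding status is undetermined in the annotation. *Gm43984* and *Gm36936* lost the call whichever library was left out, *Gm48139* without control replicate 1, 2 or 5 (edgeR adjusted p up to 0.221, 0.15 and 0.215), and *Gm36936* was not called by DESeq2.

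*Zfp990* (chr4:145510759-145539188), a gene of the large zinc finger family, had 0.251, 0 and 0 CPM against 2.57 and 4.60 CPM. With 2 counts against 57, the ratio was 48.9 with a 95% counting interval of 12.9 to 414 (edgeR adjusted p = 0.0253). Of its 50-base stretches, 29.1% also occur exactly in transcripts of 53 other genes, *Zfp987* and *Zfp534* among them, so the assignment of its reads is uncertain. It lost the call without control replicate 2, 3 or 5 (edgeR adjusted p up to 0.15). *Zfp868* (chr8:69610857-69625548), another zinc finger gene, was expressed in both lines, with 20.2, 33.8 and 22.4 CPM against 57.1 and 111 CPM (log2 difference 1.72, standard error 0.27, edgeR adjusted p = 0.0125). It was not called without control replicate 1, 3 or 5 (edgeR adjusted p = 0.23 without replicate 5).

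*Gm15920* (chr5:130188395-130188796), a processed pseudogene, had 0.251, 0.390 and 0.374 CPM in control replicates 1 to 3 and 10.98 and 10.4 CPM in replicates 4 and 5 (log2 difference 4.91, standard error 0.73, edgeR adjusted p = 0.00789). It is a copy of *Ndufa12*, which encodes a subunit of respiratory complex I: 78.8% of its 50-base stretches occur exactly in *Ndufa12* transcripts. *Ndufa12* itself had 48.4, 56.5 and 58.2 CPM against 50.2 and 65.4 CPM (edgeR adjusted p = 0.959). The pseudogene lost the call without control replicate 1 or 3 (edgeR adjusted p up to 0.0568). A stretch of 300 of the 402 bases of the pseudogene is shown, with capitals for bases that lie in no 50-base stretch in common with *Ndufa12*. The whole pseudogene has 26 such bases, and most of them lie past the end of the stretch shown. How reads that fit both places were counted is not given in the sources used here.
Gm15920, GRCm38 chr5:130188473-130188772, plus strand: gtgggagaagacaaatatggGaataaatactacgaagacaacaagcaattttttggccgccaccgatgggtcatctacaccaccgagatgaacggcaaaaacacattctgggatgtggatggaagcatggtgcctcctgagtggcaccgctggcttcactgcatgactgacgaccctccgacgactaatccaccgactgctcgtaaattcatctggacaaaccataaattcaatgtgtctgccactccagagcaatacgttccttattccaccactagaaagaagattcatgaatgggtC

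Among the protein-coding genes that rose from a clear level, *Serpina3n* (chr12:104406729-104414329), a secreted inhibitor of serine proteases that reactive astrocytes are known to induce, had 15.9, 28.2 and 20.2 CPM against 115 and 97.0 CPM. The log2 difference was 2.3 (standard error 0.31, edgeR adjusted p = 0.00574), and it was the only one of the 24 genes that passed under every alternative tried. The 8 astrocyte markers summed to 137, 162 and 166 CPM against 161 and 175 CPM, with 5 higher, 3 lower and 0 called by edgeR. *Gfap* was the only 1 of the 8 without overlap between the groups, against 29.2% of all tested genes. It was low, with 1.504, 2.24 and 3.28 CPM against 4.06 and 5.64 CPM (edgeR adjusted p = 0.662). *Cfap54* (chr10:92775619-93081618), a gene of motile cilia, had 12.5, 17.3 and 14.9 CPM against 43.1 and 57.5 CPM (log2 difference 1.75, standard error 0.24, edgeR adjusted p = 0.00574). *Nudt16* (chr9:105128903-105131824), an RNA decapping enzyme of the Nudix family, had 23.7, 30.2 and 30.5 CPM against 89.8 and 103 CPM (log2 difference 1.77, standard error 0.27, edgeR adjusted p = 0.00789). In each of these genes both *Morc2a*-line libraries were above all *Mphosph8*-line libraries. *Cfap54* lost the call without control replicate 5 (edgeR adjusted p = 0.0577) and *Nudt16* without replicate 1 or 5.

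Of the 14 genes that were lower in the *Morc2a* line, 6 had at most 2.23 CPM in both of its control libraries. *Gm40893* (chr12:98523844-98526583), an antisense transcript, had 10.3, 12.4 and 10.7 CPM in control replicates 1 to 3 and 0.198 and 0 CPM in replicates 4 and 5. Its counts were 323 against 2, a ratio of 94.1 with a 95% counting interval of 25.8 to 780, and its adjusted p was the lowest of all genes (0.00281 from edgeR). It was not called by limma-voom (adjusted p = 0.182). *Gm19427* (chr9:72551728-72551935), a processed pseudogene, had 5.64, 3.32 and 3.93 CPM against 0.0989 and 0.149 CPM (121 against 2 counts, ratio 35.2, 95% counting interval 9.55 to 294, edgeR adjusted p = 0.0391). It lost the call whichever library was left out (edgeR adjusted p up to 0.171).

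*Col6a4* (chr9:105989454-106096783), a chain of type VI collagen, had 14.8, 9.76 and 8.89 CPM against 0.792 and 2.23 CPM (log2 difference -2.93, standard error 0.51, edgeR adjusted p = 0.0253). *Eps8l1* (chr7:4460674-4480487), a relative of the actin regulator EPS8, had 7.27, 14.2 and 14.04 CPM against 0.792 and 1.34 CPM (log2 difference -3.49, standard error 0.60, edgeR adjusted p = 0.0226). *Slc25a47* (chr12:108836046-108856815), a mitochondrial carrier known mainly from liver, had 11.3, 10.3 and 12.9 CPM against 0.396 and 2.08 CPM (log2 difference -3.29, standard error 0.61, edgeR adjusted p = 0.0388). All 3 had at most 14.8 CPM in any control, and each kept the call in only 1 of the 5 fits that left out a control library (edgeR adjusted p up to 0.156, 0.139 and 0.173).

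The other 8 genes were well expressed in both lines and were lower by 1.02 to 1.73 on the log2 scale. *Actl6b* (chr5:137553517-137569582), the neuron-specific actin-like subunit of the BAF chromatin remodelling complex, had 77.3, 86.6 and 76.4 CPM against 16.5 and 32.1 CPM (log2 difference -1.73, standard error 0.26, edgeR adjusted p = 0.00789). *Sel1l* (chr12:91806043-91849157), an adaptor of the ubiquitin ligase that clears misfolded proteins from the endoplasmic reticulum, had 356, 384 and 380 CPM against 169 and 194 CPM (log2 difference -1.04, standard error 0.14, edgeR adjusted p = 0.00574). *Vipr2* (chr12:116077726-116146261), a receptor of vasoactive intestinal peptide and PACAP, had 66.1, 107 and 111 CPM against 31.4 and 33.4 CPM (log2 difference -1.55, standard error 0.23, edgeR adjusted p = 0.00789). The groups did not overlap, and without control replicate 4 *Actl6b* and *Vipr2* lost the call (edgeR adjusted p = 0.0676 for both) and *Sel1l* fell below a 2-fold difference. *Vipr2* lost it without replicate 3 or 5 too. *Prkcz* (atypical protein kinase C zeta), *Elovl1* (a fatty acid elongase), *Gtf2ird1* (a transcription factor), *Pxylp1* (a phosphatase that acts on proteoglycan linkers) and *Ccdc88c* (a regulator of Wnt signalling) had log2 differences of -1.37, -1.63, -1.44, -1.32 and -1.02. Of the 50-base stretches of *Prkcz*, 14.8% also occur in *Prkcz2*. *Gtf2ird1* and *Pxylp1* lost the call whichever library was left out (edgeR adjusted p up to 0.156 and 0.127), *Prkcz* without replicate 1 or 5 (up to 0.139), *Elovl1* without any but replicate 4 (up to 0.229) and *Ccdc88c* without any but replicate 2 (up to 0.129).

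None of the genes near either floxed gene was called. Within 10 Mb of *Morc2a* on chromosome 11, 98 genes were tested, 0 were called by edgeR, DESeq2 or limma-voom, and 12 (12.2%) had an unadjusted edgeR p below 0.05, against 9.21% of all tested genes. Within 10 Mb of *Mphosph8* on chromosome 14, 224 genes were tested, 0 were called by any of the 3 tools, and 19 (8.48%) had an unadjusted edgeR p below 0.05. The lowest p beside *Morc2a* was that of *Xbp1*, a transcription factor of the unfolded protein response, with 264, 302 and 287 CPM against 172 and 219 CPM (edgeR adjusted p = 0.274). The lowest beside *Mphosph8* was that of *Cbln3*, a cerebellar granule cell gene that is described further on. Windows of 5 and 20 Mb held no called gene either.

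The genes below an adjusted p of 0.05 lay elsewhere, and 22 of the 32 had another of them within 10 Mb. How many would have such a neighbour in a set of 32 drawn from all tested genes was not computed. The count of 22 therefore does not show that the genes lie closer together than others. Chromosome 12 had 7 of its 740 tested genes among them (0.946%), chromosome 4 had 6 of 1045 (0.574%), chromosome 9 had 5 of 1067 (0.469%) and chromosome 13 had 3 of 744 (0.403%), against 0.172% over all chromosomes. Chromosomes 1, 2, 3, 11, 14, 15, 17, 19 and X had none by edgeR. On chromosome 12, *Sel1l*, *Gm40893*, *Ccdc88c*, *Serpina3n*, *Slc25a47*, *Vipr2* and *Esyt2* followed each other between 91806043 and 116391050, and *Serpina3n* and *Esyt2* were higher while the other 5 were lower. *Esyt2*, an extended synaptotagmin that tethers endoplasmic reticulum to the plasma membrane, starts 0.203 Mb from the start of *Vipr2* and had 128, 120 and 114 CPM against 217 and 213 CPM (log2 difference 0.83, edgeR adjusted p = 0.0333). Neighbours thus differed in opposite directions.

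Such neighbours occurred on other chromosomes too. On chromosome 8, *Ints10*, a subunit of the Integrator complex, starts 0.817 Mb from *Zfp868* and had 107, 96.9 and 108 CPM against 161 and 209 CPM (log2 difference 0.83, edgeR adjusted p = 0.0307), so that both were higher. On chromosome 9, *Gm19427* and *Gm36936* start 0.176 Mb apart and differed in opposite directions, and *Nudt16* and *Col6a4* start 0.861 Mb apart and did so too. On chromosome 13, *Sv2c*, a synaptic vesicle protein, starts 0.651 Mb from *Gm48139* and was lower (log2 difference -0.91, edgeR adjusted p = 0.0252), whereas *Gm48139* was higher. On chromosome 4, *Clstn1*, which encodes the neuronal transmembrane protein calsyntenin, starts 4.08 Mb from *Zfp990* and had 855, 1026 and 968 CPM against 525 and 440 CPM (log2 difference -0.98, edgeR adjusted p = 0.00789). Whether these stretches differ in sequence between the lines was not tested, since only counts were used.

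**Figure D2:**
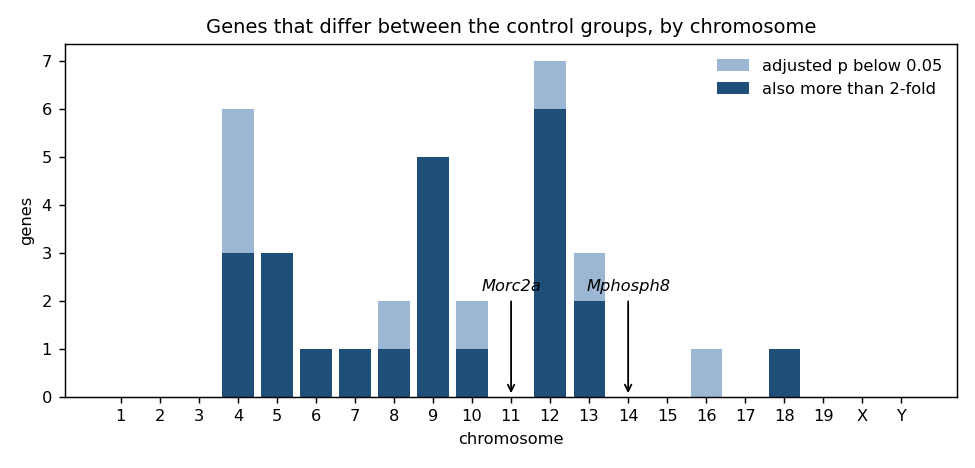
Number of genes on each chromosome that differed between the control groups at an adjusted p below 0.05 (light bars) and of those also more than 2-fold apart (dark bars). Arrows mark the chromosomes of the floxed genes, 11 and 14, which have 0 such genes, and chromosome 12 has the most, 7.

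The knockout libraries show the same pair of lines in other mice. The study describes its controls and knockouts as littermates, so both comparisons may share litters. Between the Morc2a fl/fl *Nestin*-Cre+ and Mphosph8 fl/fl *Nestin*-Cre+ libraries 48 genes were called (0.258% of tested genes), but there line and deleted gene cannot be told apart. Of the 24 genes called in the controls, 22 had a difference of the same sign in the knockouts, 9 were called there with the same sign, and none was called with the opposite sign. The share of all tested genes with the same sign in both comparisons was not computed, so the count of 22 has no baseline here. Groups did not overlap, in the same direction, for 17 of the 24, against 28% of all tested genes in either direction. The 9 genes were *1700023H06Rik*, *Gm48139*, *Gm43984*, *Gm36936*, *Gm15920*, *Cfap54*, *Zfp868*, *Col6a4* and *Eps8l1*. *Cfap54* had 13.0, 12.2 and 15.4 CPM in the *Mphosph8* knockout and 72.6 and 61.9 CPM in the *Morc2a* knockout libraries (log2 difference 2.31, edgeR adjusted p = 0.000661). *Col6a4* had 21.1, 19.3 and 25.6 CPM against 2.24 and 1.14 CPM (log2 difference -3.70, edgeR adjusted p = 0.0045). Both genes kept the order of the lines in all 10 libraries.

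**Figure D3:**
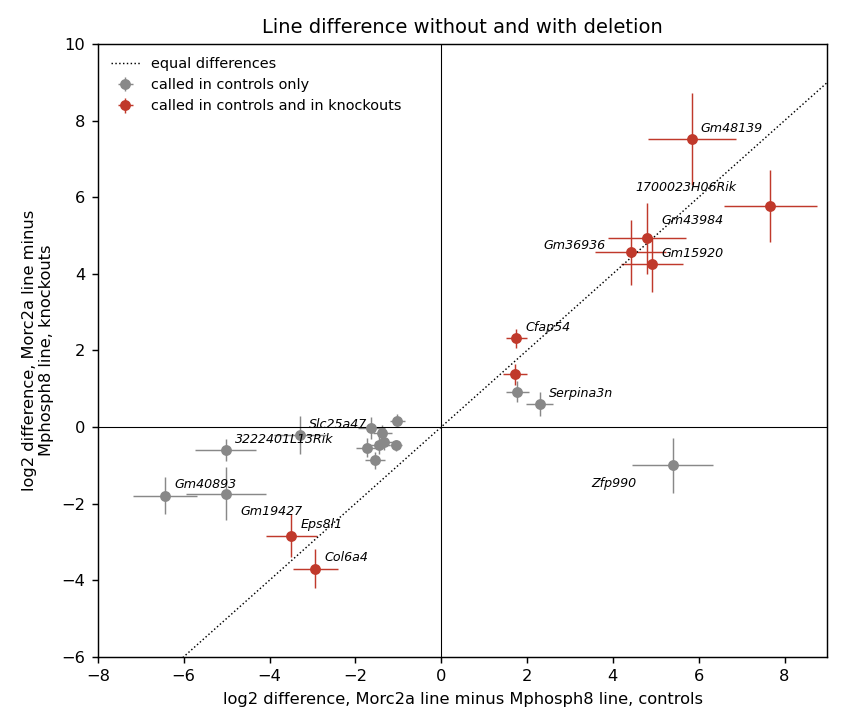
Log2 difference between the lines (Morc2a line minus Mphosph8 line) in the knockouts (y axis) against that in the controls (x axis) for the 24 genes called in the controls, with standard errors from edgeR. Red points are the 9 genes also called in the knockouts, the dotted line marks equal differences, and Zfp990 and Ccdc88c are the 2 genes whose signs differ.

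Other genes kept the direction with a smaller difference. The difference was smaller in size in the knockouts for 19 of the 24 genes, which were chosen for their size in the controls. For 14 of the 24 both *Morc2a* knockout libraries lay between the means of the control groups. Neither share was computed over all tested genes. *Sel1l* had 345, 380 and 344 CPM in the *Mphosph8* knockout and 222 and 289 CPM in the *Morc2a* knockout libraries (log2 difference -0.48, edgeR adjusted p = 0.127). *Gm40893* had 11.6, 13.7 and 12.5 CPM against 5.01 and 2.27 CPM (log2 difference -1.79, edgeR adjusted p = 0.106), and *Serpina3n* had 26.9, 21.7 and 38.3 CPM against 60.1 and 27.9 CPM (log2 difference 0.60, edgeR adjusted p = 0.417). The *Morc2a* knockout libraries were thus intermediate for *Sel1l* and *Gm40893*. For *Serpina3n* replicate 1 was intermediate, while replicate 2, at 27.9 CPM, lay within the range of the *Mphosph8*-line libraries. *Zfp990* went against the control order, with 6.73, 6.38 and 10.45 CPM in the *Mphosph8* knockout and 3.62 and 4.24 CPM in the *Morc2a* knockout libraries (edgeR adjusted p = 0.583). *Ccdc88c* did too, with 66.4, 66.9 and 74.4 CPM against 74.7 and 80.7 CPM (edgeR adjusted p = 0.726). The test of the difference between both line differences was past an adjusted p of 0.05 for 0 of 18573 genes by edgeR (lowest adjusted p = 0.133) and at an unadjusted p below 0.05 for 1476 (7.95%).

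The *Morc2a*-line controls differed as much from each other as from the controls of the other line. Over 12473 genes with a mean of at least 5 CPM, control replicates 4 and 5 were more than 4-fold apart for 117 genes. Pairs of controls from different lines were so for 72 to 111 genes, and pairs within the *Mphosph8* line for 6 to 28 genes. The chi-square per degree of freedom was 16.2 between replicates 4 and 5, 8.75 to 13.8 within the *Mphosph8* line and 16.1 to 21.5 between lines, so no control library repeats another within counting error.

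**Figure D4:**
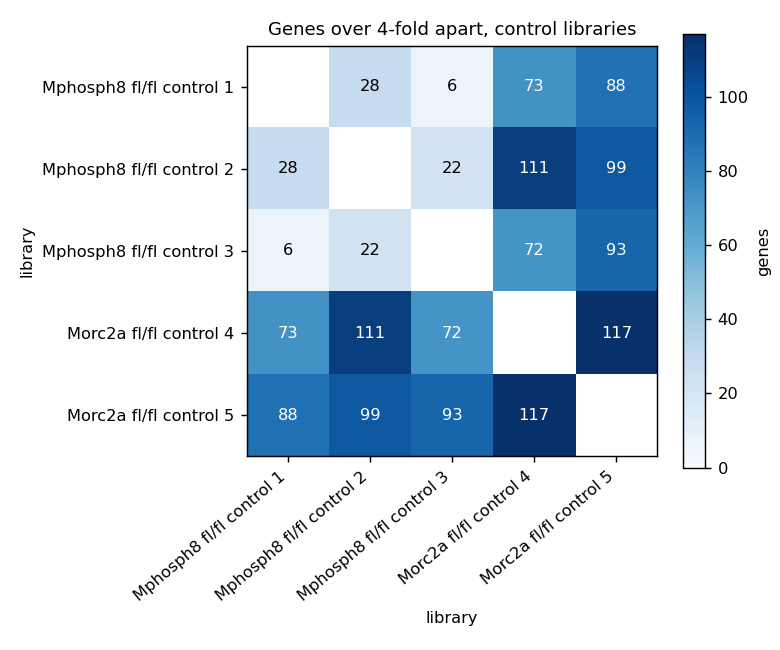
Number of genes more than 4-fold apart (of 12473 with a mean of at least 5 CPM, ratios of CPM + 0.5) for each pair of the 5 control libraries. The 3 Mphosph8 fl/fl controls have 6 to 28 such genes among them, and the pair of Morc2a fl/fl controls has 117.

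The genes furthest apart between control replicates 4 and 5, chosen after their values were seen, included markers of cerebellar granule neurons and genes that were nearly absent from one of the pair. *Cbln3*, a secreted protein of granule neurons, had 150 CPM in replicate 4 and 1.04 CPM in replicate 5, with 3.89, 6.44 and 5.34 CPM in the *Mphosph8*-line controls. *Gabra6*, the GABA receptor subunit typical of granule neurons, had 104 and 4.75 CPM, against 2.26, 3.12 and 5.71 CPM. Both were high in replicate 4 alone among the controls, and *Mphosph8* knockout replicates 1 and 2 were high too (68.3 and 92.4 CPM of *Cbln3*). *Pttg1* (securin) had 0.89 CPM in replicate 4 and 52.0 CPM in replicate 5, and 59.2, 47.9 and 55.7 CPM in the *Mphosph8* line. In the *Morc2a* knockouts *Pttg1* had 20.7 and 1.65 CPM. *Abhd14b* had 0.297 and 31.6 CPM in replicates 4 and 5 and 0.745 and 27.8 CPM in the *Morc2a* knockouts, against 33.6 to 50.5 CPM in the *Mphosph8*-line controls. At these 2 genes the *Mphosph8*-line controls were all high, while libraries of the *Morc2a* line ranged from nearly none upwards. The highest of them was within the range of the *Mphosph8*-line controls for *Pttg1* (52.0 CPM) and below that range for *Abhd14b* (31.6 CPM).

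Lists of marker genes were summed to compare the RNA of cell types between the libraries. The 8 granule neuron genes summed to 75.5, 108 and 117 CPM in control replicates 1 to 3, 572 CPM in replicate 4 and 105 CPM in replicate 5, a log2 difference of 1.76 that fell to 0.06 without replicate 4. Of the 7 that were tested, 7 had a positive log2 difference, 6 at an unadjusted p below 0.05 (9.21% of all tested genes), and 0 were called by edgeR, DESeq2 or limma-voom. Fewer nuclei of a type and less RNA per nucleus cannot be told apart in such libraries. For 5 Purkinje cell markers the sum was 285, 270 and 274 against 262 and 198 CPM. For 4 dentate gyrus genes it was 73.3, 92.7 and 67.4 against 60 and 22 CPM, lowest in replicate 5. The log2 difference of this sum was -0.925, and it was -0.376 without replicate 5 and -1.82 without replicate 4. All 4 genes were lower, 3 at an unadjusted edgeR p below 0.05, and 1 did not overlap between the groups. *Lct* was called by DESeq2 alone. The neuronal markers summed to 5140, 5940 and 5960 against 5510 and 5410 CPM, and 8 inhibitory neuron genes to 1700, 2130 and 2080 against 1710 and 1680 CPM. The 8 forebrain excitatory genes had 851, 851 and 775 against 710 and 691 CPM, with 6 of 8 lower. No test of a list sum is given, because a two-sided exact permutation p of 3 against 2 libraries cannot fall below 0.2.

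Other cell classes mostly overlapped between the groups. Oligodendrocyte markers summed to 762, 993 and 843 against 827 and 822 CPM, with *Mbp* the most abundant, and oligodendrocyte precursor markers to 72.1, 70.7 and 77.9 against 67.2 and 73.8 CPM. Microglial markers summed to 37.0, 58.3 and 45.4 against 78.9 and 50.9 CPM. Of the 7 microglial genes tested, 6 were higher and 1 was lower in the *Morc2a* line, and 0 were called by edgeR. Unadjusted edgeR p was below 0.05 for 2 (9.21% of all tested genes), and 2 did not overlap between the groups (29.2% of all tested genes). *C1qa*, another member of the microglial list of 8, was at or below 0.743 CPM in all 5 libraries. Vascular markers had 16.9, 39.6 and 21 against 12.7 and 42 CPM. Choroid plexus and ependymal genes had 143, 163 and 133 against 88.7 and 120 CPM and were led by *Ttr* (transthyretin), with *Aqp1* at 0 counts in all 5. Pituitary genes had 5.89, 9.76 and 4.03 against 13.1 and 23.5 CPM, without overlap. Striatal, olfactory bulb, monoaminergic and hypothalamic lists overlapped between the groups, thalamic, midbrain and hindbrain genes summed to 210 to 217 against 180 and 199 CPM, and none of the genes on these lists was called by edgeR. Their part in the called differences was not tested.

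**Figure D5:**
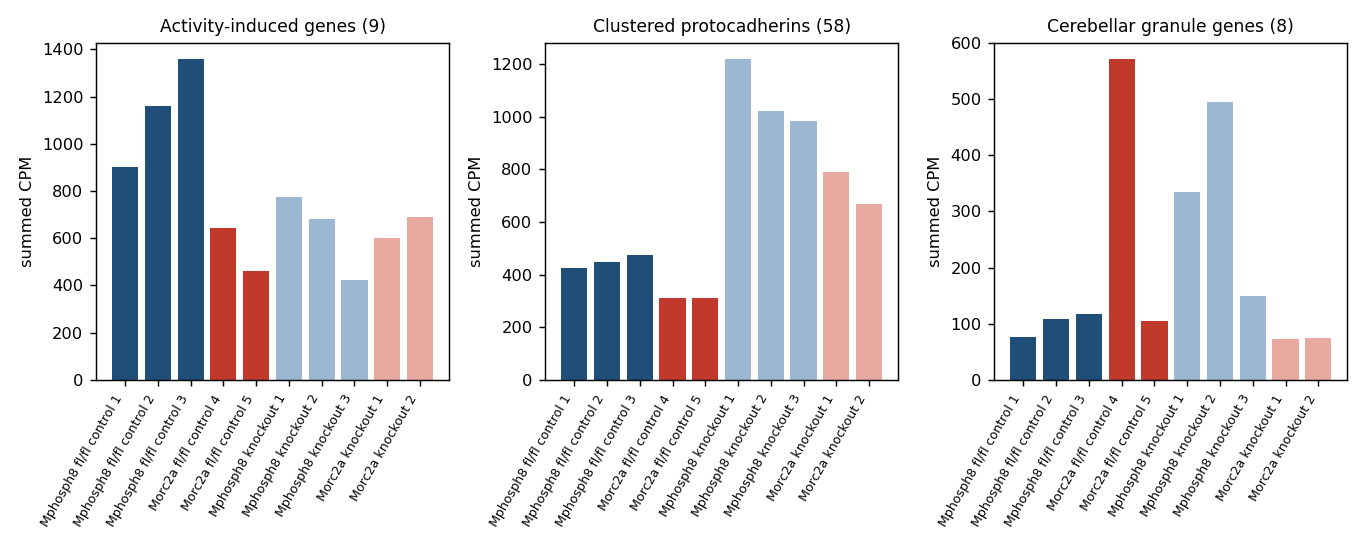
Summed CPM of 9 activity-induced genes, 58 clustered protocadherins and 8 cerebellar granule genes in each library (dark blue, Mphosph8 fl/fl controls; dark red, Morc2a fl/fl controls; light blue and light red, knockouts of the same lines). Activity genes are highest in the 3 Mphosph8 fl/fl controls, protocadherins are lowest in the Morc2a fl/fl controls, and granule genes reach 572 CPM in control replicate 4.

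Immediate early genes, which neurons switch on within minutes of activity, were lower in the *Morc2a*-line controls. Their 9 members summed to 900, 1160 and 1360 CPM in control replicates 1 to 3 and to 641 and 463 CPM in replicates 4 and 5 (log2 difference -1.05). All 9 had a negative log2 difference (median -0.88, against -0.003 for all tested genes), 6 at an unadjusted p below 0.05 (9.21% of all tested genes), and 7 did not overlap between the groups (29.2% of all tested genes). None was called by edgeR, 3 by DESeq2 (*Arc*, *Nr4a1* and *Dusp1*) and 1 by limma-voom, which called 0.555% and 0.0754% of all genes they tested. *Arc*, which regulates AMPA receptor endocytosis at synapses, had 376, 496 and 633 CPM against 249 and 156 CPM (log2 difference -1.31, standard error 0.27, edgeR adjusted p = 0.0581). *Nr4a1*, an orphan nuclear receptor, had 37.2, 45.1 and 46.7 CPM against 17.3 and 11.7 CPM (log2 difference -1.56, standard error 0.33, edgeR adjusted p = 0.0715). *Egr1*, a zinc finger transcription factor, had 220, 252 and 286 CPM against 155 and 151 CPM (log2 difference -0.73, edgeR adjusted p = 0.139). The knockout libraries of both lines were also low, at 424 to 775 CPM in sum, so that for 5 of the 9 genes all *Mphosph8*-line controls lay above the other 7 libraries, which held for 1.49% of all tested genes. How long each brain was handled before the nuclei were isolated is not given in the sources used here.

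Clustered protocadherins, the adhesion molecules that give neurons individual surface identities, were lower in sum in the *Morc2a*-line controls. In the knockouts they summed to 985 to 1220 CPM (*Mphosph8*) and 668 and 791 CPM (*Morc2a*). The 58 genes summed to 426, 447 and 476 CPM in the *Mphosph8* line and 312 and 311 CPM in the *Morc2a* line (log2 difference -0.53). Of 49 tested members 36 were lower and 12 higher (median -0.86), 12 were lower and 0 higher at an unadjusted p below 0.05 (9.21% of all tested genes in either direction), and 32.7% did not overlap between the groups, against 29.2% of all genes. None was called by edgeR or limma-voom, and *Pcdhb14* was called by DESeq2. *Pcdhb14* had 11.8, 14.4 and 19.5 CPM against 5.94 and 4.31 CPM (log2 difference -1.56, standard error 0.34, edgeR adjusted p = 0.0764). *Pcdhga12* had 60.3, 51.9 and 64.9 CPM against 29.4 and 30.0 CPM (log2 difference -0.99, standard error 0.21, edgeR adjusted p = 0.0725), though 38.1% of its exonic bases are shared with other genes. Both controls of the *Morc2a* line were thus below all those of the *Mphosph8* line for each of these members.

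The difference was largest in the gamma array, which summed to 184, 148 and 178 against 90.1 and 88.1 CPM (log2 difference -0.93). The beta array summed to 227, 283 and 285 against 212 and 210 CPM (-0.33), and the alpha array to 15.2, 16.3 and 13.8 against 10.6 and 13.1 CPM (-0.35). The lincRNA *3222401L13Rik* (chr18:37655451-37661742), which lies inside the cluster, was called: it had 4.51, 9.08 and 5.06 CPM in the *Mphosph8* line against 0 and 0.446 CPM in the *Morc2a* line, 183 against 3 counts, a ratio of 35.5 with a 95% counting interval of 12 to 174 (edgeR adjusted p = 0.00574). It was not called without control replicate 4 (edgeR adjusted p = 0.0676), with the 5 control libraries fitted alone, or by limma-voom. In the knockouts it had 178, 137 and 118 CPM in the *Mphosph8* and 71.2 and 119 CPM in the *Morc2a* line, and the groups overlapped (edgeR adjusted p = 0.380).

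Of 8 genes of HUSH and its partners, the floxed genes included, 6 had a negative and 2 a positive log2 difference (median -0.10, against -0.003 for all tested genes), and 0 were called by edgeR, DESeq2 or limma-voom. Unadjusted p was below 0.05 for 2 of 8, against 9.21% of all tested genes, and the groups did not overlap for 2 lower and 2 higher members, against 29.2%. *Fam208b*, also named *Tasor2*, a relative of the HUSH subunit TASOR, had the largest difference, -0.999 on the log2 scale (standard error 0.34, edgeR adjusted p = 0.346), with 25.6 ± 2.5 CPM (SD, n = 3) in the *Mphosph8* and 12.8 ± 1.67 CPM (SD, n = 2) in the *Morc2a* line. *Atf7ip*, the partner of SETDB1, had 166, 148 and 127 CPM against 112 and 108 CPM (edgeR adjusted p = 0.411).

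Genes known to differ between C57BL/6 substrains or mouse strains were read for the same reason. *Nnt*, a mitochondrial transhydrogenase of which C57BL/6J carries a deletion, was near the floor in both lines, with 1.504, 1.07 and 1.69 CPM against 0.0989 and 1.19 CPM (edgeR adjusted p = 0.871). *Crb1*, a cell polarity gene that is mutated in C57BL/6N, had 1.504, 0.0976 and 0.655 CPM against 5.94 and 7.28 CPM (log2 difference 3.15, standard error 0.83, edgeR adjusted p = 0.188) and was called by DESeq2 alone. *Cyfip2*, which carries another C57BL/6N variant, had 395, 475 and 423 CPM against 374 and 341 CPM (edgeR adjusted p = 0.55). Of the 8 tested genes on this list 0 were called by edgeR or limma-voom and 1 had an unadjusted edgeR p below 0.05 (9.21% of all tested genes), and read counts do not show which alleles are present. The 5 sex-linked genes had the male pattern in all 10 libraries, with 0 counts on *Xist*.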

How the data were processed

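The deposited values are raw read counts for 54532 genes, to which the authors applied no normalization. Single 50-base reads were trimmed by the authors with Trim Galore 0.5.0, abundant sequences were removed with Bowtie2 2.3.4.1, the rest was aligned to GRCm38 with STAR, and gene counts came from featureCounts (Subread 1.6.2). The strand setting of the counting is not given in the sources used here.

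The tests used edgeR 4.0.16 under R 4.3.3, with DESeq2 1.42.0 and limma 3.58.1 as alternatives, and plots matplotlib 3.10.9. All 10 libraries entered 1 quasi-likelihood fit with 4 groups (18573 genes after filterByExpr, TMM scaling, common dispersion 0.126), so that the knockouts add to the estimate of the spread. P-values were adjusted over all genes by the Benjamini-Hochberg method. Replicates are separate libraries, which the study calls biological, and p-values assume separate mice. Positions and types come from GENCODE M21, joined by gene identifier. Ratios with 1 to 3 counts in a group carry exact binomial 95% intervals. On simulated counts for the control comparison (17751 genes tested), edgeR called 67.5% of 200 genes changed 4-fold, and 2.88% of its calls were false. The corresponding values for DESeq2 were 72% and 9.43%. These shares belong to the simulated counts, and whether they hold for the called genes was not tested.

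The named genes are the floxed genes, *Rbfox3*, the called genes by size with groups that do not overlap, those called in both comparisons, and members of the marker lists. Any further gene was picked with its values in view. The comparison and the lists were chosen with earlier results of these data known. Alternatives were other size factors, filters and tools, fewer libraries, no minimum fold and other windows.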

Additional observations from a re-analysis of the deposited data

How the results depend on the processing

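With 2 libraries in 1 group the count of called genes depends on the method more than the direction of single genes does. In the controls, 24 genes were called, and 154 without a filter on low counts, 95 by DESeq2, 14 by limma-voom, 49 with the 5 libraries compared alone, and 11 to 29 with 1 library left out. In the knockouts, 48 were called, and 192 without a filter, 74 with at least 10 counts in every library, 132 by DESeq2, 29 with the 5 libraries alone, 81 with no minimum fold change, and 14 to 79 with 1 library left out. Median-of-ratios size factors gave 24 and 45. Of the 24 genes called in the controls, 10 remained called under every alternative that left out no library and could test them, 3 with any library left out, and 1 under all, and no direction was reversed. A library left alone in its group is assumed to vary like the others. With at least 10 counts required in every library 23 genes were called: 12 of the 24 could not be tested and the other 12 remained.

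No paired analysis was possible for the controls, because their replicate numbers do not repeat. With the replicate number as a replicate block in the 5 knockout libraries alone, 9 genes were called. Nothing in the labels ties the numbers to shared litters or days.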
